A study of Homo sapiens with 24 samples.

Results

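The chemokine genes of SKBR3 breast cancer cells were examined across 6 states of therapy-induced senescence (TIS) and 2 untreated states. Members were the rows of the count table whose symbol was CCL, CXCL, or CX3CL followed by digits only, and they numbered 5 of 14493 genes: CCL2, CCL17, CCL22, CX3CL1, and CXCL16. The annotation of the same genome build held 39 protein-coding genes with such a symbol, and those outside the table were not analysed here. SKBR3 (SKBr3 in the labels) is an established human breast cancer line. It was treated with ND-646, an inhibitor of acetyl-CoA carboxylase, or TVB-3166, an inhibitor of fatty acid synthase, each at 250 nmol/L, or with alisertib, an Aurora A kinase inhibitor, at 500 nmol/L. The other 3 drugs were doxorubicin, a topoisomerase II poison, at 10 nmol/L, bleomycin, which breaks DNA, at 10 μmol/L, and palbociclib (palboclib in the labels), a CDK4/6 inhibitor, at 1 μmol/L. Drug was renewed on day 3 and cells were collected on day 7. Untreated cells were collected at day 0 and at day 7, and each of the 8 groups had 3 libraries.

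Chemokines are small secreted or membrane-bound proteins that steer leukocytes through G protein-coupled receptors, and they are a regular part of the senescence-associated secretory phenotype (SASP), the mixture of factors that senescent cells release. CX3CL1 (fractalkine) and CXCL16 are made as transmembrane proteins with the chemokine domain on a stalk. Proteases such as ADAM10 and ADAM17 cut them free, and their receptors are CX3CR1 and CXCR6. CCL22 and CCL17 share the receptor CCR4, which is typical of T helper 2 and regulatory T cells, and CCL2 attracts monocytes through CCR2. RNA levels do not measure secreted protein. In bulk libraries, fewer cells making a transcript and less transcript per cell cannot be told apart.

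Total counts ranged from 29405121 to 44316330 per library. The luminal breast cancer markers, among them the keratins KRT8, KRT18, and KRT19, were abundant in every group, with 7 of 8 listed genes in the table at a summed 12258.9 to 22087.4 CPM (counts per 1000000 counts of the library, scaled by TMM factors). Of these 7 genes, 3 or 4 were lower and at most 1 was higher than at day 0 in each TIS group, where 18.8% to 27.7% of all genes were lower and 17.7% to 27.4% higher. Of 9 leukocyte markers 1 was in the table, CD68, which is also a lysosomal protein of other cells. The labels do not say whether the replicates came from separate cultures. If they did not, p-values measure only the spread between these libraries, which may be technical. All groups come from a single line, and a drug dose was given once per drug, so dose and agent cannot be told apart between groups.

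Of the 5 genes, 3 lie together on the long arm of chromosome 16 and the other 2 on chromosome 17. On GRCh37, CCL22 (NCBI gene 6367) spans chr16:57392695-57400101, CX3CL1 (6376) spans chr16:57406389-57418956, and CCL17 (6361) spans chr16:57438679-57449975. All 3 are on the plus strand, with 6287 bases between CCL22 and CX3CL1 and 19722 bases between CX3CL1 and CCL17. CCL2 (6347) lies at chr17:32582293-32584227 on the plus strand. CXCL16 (58191) lies at chr17:4636828-4643223 on the minus strand and overlaps MED11 and ZMYND15 on the opposite strand. Whether counting used strand is not given in the sources used here, so reads of CXCL16 and of these genes may not have been told apart.

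CCL22 changed most of the 5 genes in ND-646 cells, and its promoter is shown for that reason. It was the 1 member of 5 with an entry in the RefSeq promoter table used here. The sequence covers the 250 bases before the annotated start, on the plus strand of build GRCh38.p14, chr16:57358533-57358782, and capitals mark the match to the NF-κB consensus.
CCL22 promoter: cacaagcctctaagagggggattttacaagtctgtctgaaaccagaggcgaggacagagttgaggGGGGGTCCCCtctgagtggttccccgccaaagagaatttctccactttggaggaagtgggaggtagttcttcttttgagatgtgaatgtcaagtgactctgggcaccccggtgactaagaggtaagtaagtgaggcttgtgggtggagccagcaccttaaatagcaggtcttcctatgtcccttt
The match occupies bases 66 to 75, counted from the 5′ end. On both strands, 5.21% of 35116 promoter windows of the same length held a match to this consensus. The other motifs searched were the GAS element TTCNNNGAA, the ISRE (GAAA, any 2 bases, GAAA), the AP-1 site TGANTCA, the SREBP site TCACNCCAC, and the TATA box TATAAA. None of them had a match in this window, and they were held by 6.57%, 3.02%, 6.57%, 0.883%, and 10.7% of the windows. A match is a description of the sequence, and binding was not measured.

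CX3CL1, the membrane-bound ligand of CX3CR1, had the highest mean level per length of the 5 genes in every group and rose with 5 of the 6 drugs. Its levels in the 3 day-0 libraries were 44.9, 44.9, and 34.0 CPM. The 3 day-7 untreated libraries held 52.0, 39.4, and 34.7 CPM. The untreated groups overlapped. ND-646 cells held 301, 201, and 230 CPM. TVB-3166 cells held 220, 220, and 211 CPM. In both, every library stood above every untreated library by a wide margin, and the bleomycin libraries came next at 190, 188, and 170 CPM. Doxorubicin libraries held 111, 77.4, and 83.1 CPM. Alisertib libraries held 89.4, 69.8, and 75.1 CPM. These ranges overlapped each other and lay above the untreated ones. Palbociclib libraries, at 47.9, 45.2, and 45.9 CPM, lay just above those of day 0 and within the range of untreated day 7.

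Against day-0 cells, CX3CL1 was 5.89-fold higher in ND-646 cells (95% confidence interval 4.31 to 8.04, adjusted p = 3.98e-05) and 5.27-fold higher in TVB-3166 cells (4.39 to 6.33, adjusted p = 3.17e-07). The fold-change was 4.45 in bleomycin cells (3.63 to 5.46, adjusted p = 1.12e-05), 2.21 in doxorubicin cells (1.74 to 2.80, adjusted p = 0.000281), and 1.89 in alisertib cells (1.55 to 2.30, adjusted p = 0.000706). Palbociclib cells were at 1.12-fold (0.938 to 1.35, adjusted p = 0.252), and this interval lies below the 1.89-fold of alisertib, the smallest of the called changes. In the order of group means, ND-646, TVB-3166, and bleomycin were followed by a step of 2.02-fold down to doxorubicin (adjusted p = 0.000437). A second step, of 1.68-fold, separated alisertib from palbociclib (adjusted p = 0.00197), and the other 5 neighbors in the order did not differ beyond their spread.

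**Figure D1:**
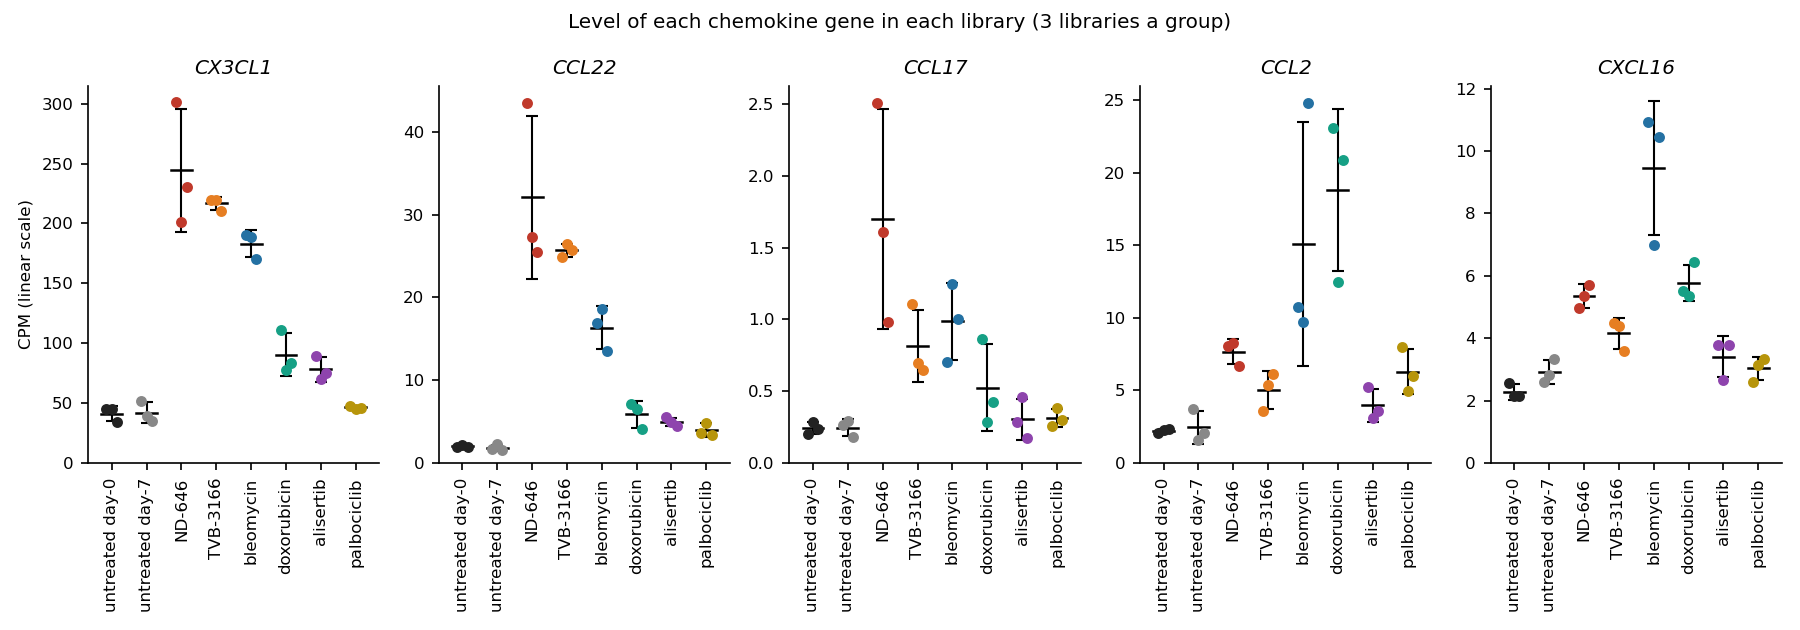
Levels of the 5 chemokine genes in CPM on linear axes that start at 0 and differ between panels. Points are libraries, horizontal lines are means, and bars are the SD of 3 libraries. CX3CL1, CCL22, and CCL17 have their highest means in ND-646 cells (244, 32.1, and 1.70 CPM), CCL2 in doxorubicin cells (18.8 CPM), and CXCL16 in bleomycin cells (9.46 CPM).

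CCL22, a ligand of CCR4, had the largest fold-change of the 5 genes in ND-646, TVB-3166, and bleomycin cells. Day-0 libraries held 1.98, 2.17, and 1.95 CPM, from 66 to 78 counts each. Untreated day-7 libraries held 1.66, 2.26, and 1.54 CPM and overlapped them. ND-646 cells held 43.4, 27.3, and 25.5 CPM, with replicate 1 well above the other libraries of its group. TVB-3166 cells held 24.9, 26.5, and 25.7 CPM, a narrow range within that of ND-646 apart from its lowest value. Bleomycin cells held 16.9, 18.6, and 13.5 CPM, below every library of both lipogenesis inhibitors. Doxorubicin cells held 7.15, 6.47, and 4.05 CPM. Alisertib cells held 5.50, 4.94, and 4.50 CPM. Palbociclib cells held 3.62, 4.89, and 3.37 CPM. These 3 groups overlapped, and all of their libraries lay above all untreated ones.

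The fold-change of CCL22 against day-0 cells was 15.6 in ND-646 cells (10.6 to 23.2, adjusted p = 1.67e-05), 12.7 in TVB-3166 cells (10.3 to 15.6, adjusted p = 6.23e-08), and 8.05 in bleomycin cells (5.97 to 10.9, adjusted p = 1.22e-05). It was 2.92 in doxorubicin cells (2.03 to 4.2, adjusted p = 0.000592), 2.43 in alisertib cells (1.83 to 3.24, adjusted p = 0.000786), and 1.94 in palbociclib cells (1.39 to 2.71, adjusted p = 0.00388). CCL22 therefore rose in palbociclib cells, in which CX3CL1 was at 1.12-fold. Among neighbors in the order of means, TVB-3166 exceeded bleomycin by 1.57-fold (adjusted p = 0.0185), bleomycin exceeded doxorubicin by 2.77-fold (adjusted p = 0.000194), and palbociclib exceeded day 0 (adjusted p = 0.00177 in the fit of all 24 libraries, which gives the order). The first of these calls was lost without TVB-3166 replicate 2 (adjusted p = 0.0532) or without bleomycin replicate 3 (adjusted p = 0.0901). ND-646 and TVB-3166 did not differ beyond their spread (log2 difference 0.32, interval -0.09 to 0.74, adjusted p = 0.329).

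Beside CX3CL1 and CCL22, the leukocyte marker CD68 was at 5.40 ± 1.04 (SD, n = 3) CPM in day-0 cells, 46.7 ± 6.85 in ND-646, 42.1 ± 12.4 in bleomycin, and 28.5 ± 2.52 in TVB-3166 cells. These were also the 3 groups with the highest CX3CL1 and CCL22. It was at 10.8 ± 2.20 in palbociclib, 9.77 ± 0.474 in doxorubicin, and 5.21 ± 0.512 in alisertib cells, where both genes were above day 0 while CD68 was at a log2 fold-change of -0.05 (adjusted p = 0.856). The other 8 leukocyte markers were not analysed here. The labels name no cells other than SKBR3, and whether any other cells contributed to the chemokine levels was not tested.

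CCL17, the other ligand of CCR4, was scarce, with 6 to 59 counts per library, and counting error weighs on its values. Day-0 libraries held 0.203, 0.288, and 0.237 CPM. Untreated day-7 libraries held 0.266, 0.290, and 0.178 CPM. ND-646 libraries held 2.51, 1.61, and 0.982 CPM, all above the untreated ones, and the same was true of TVB-3166 at 1.10, 0.696, and 0.650 CPM and of bleomycin at 0.706, 1.25, and 1.01 CPM. Doxorubicin libraries held 0.865, 0.285, and 0.423 CPM. Alisertib libraries held 0.283, 0.457, and 0.171 CPM. Palbociclib libraries held 0.260, 0.381, and 0.298 CPM. These 3 groups overlapped with day 0. Against day-0 cells the fold-change was 6.88 in ND-646 (3.45 to 13.7, adjusted p = 0.00150), 3.37 in TVB-3166 (1.88 to 6.03, adjusted p = 0.00249), and 4.07 in bleomycin cells (2.26 to 7.34, adjusted p = 0.00196). In these comparisons CCL17 passed the filter on low counts only through the drug group in which it is high, so its calls there are not independent of the filter. Without the filter the 3 calls were made as well (adjusted p = 0.00174 in ND-646, 0.00162 in TVB-3166, and 0.00150 in bleomycin cells). Doxorubicin cells were at a log2 fold-change of 1.14 both without the filter, where it was not called (adjusted p = 0.0571), and in the fit of all 24 libraries, where it was (adjusted p = 0.0475). No neighbors in the order of the 8 means differed beyond their spread.

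CCL2, the ligand of CCR2, followed another order, with its highest levels after the 2 DNA-damaging drugs. Day-0 libraries held 2.09, 2.27, and 2.34 CPM. Untreated day-7 libraries held 3.70, 1.59, and 2.05 CPM, with replicate 1 above the range of day 0. Doxorubicin libraries held 23.1, 12.5, and 20.9 CPM. Bleomycin libraries held 10.7, 9.74, and 24.8 CPM, and replicate 3 was more than the sum of the other libraries of its group. Every library of both groups exceeded every untreated library. ND-646 libraries held 8.03, 8.29, and 6.70 CPM. Palbociclib libraries held 7.96, 4.95, and 5.97 CPM. TVB-3166 libraries held 3.58, 5.38, and 6.12 CPM. Alisertib libraries held 5.25, 3.09, and 3.58 CPM. All of them exceeded the day-0 libraries, while those of TVB-3166 and alisertib overlapped with untreated day 7.

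Against day-0 cells, CCL2 was 8.51-fold higher in doxorubicin (5.91 to 12.2, adjusted p = 1.78e-05) and 6.79-fold higher in bleomycin cells (3.91 to 11.8, adjusted p = 0.000274). The fold-change was 3.42 in ND-646 (2.44 to 4.80, adjusted p = 0.000379), 2.83 in palbociclib (2.01 to 3.97, adjusted p = 0.000282), and 2.26 in TVB-3166 cells (1.59 to 3.22, adjusted p = 0.00130). Alisertib cells were at 1.77-fold (1.24 to 2.53, adjusted p = 0.0190), a call that was lost without alisertib replicate 1 (adjusted p = 0.0741), without day-0 replicate 2 (adjusted p = 0.0522), and when all 24 libraries were fitted together (adjusted p = 0.0819). In the order of means, bleomycin exceeded ND-646 (log2 difference 0.97, adjusted p = 0.0285), and no other neighbors differed beyond their spread. Without bleomycin replicate 3 that difference was 0.41 (adjusted p = 0.349), and without ND-646 replicate 3 it was 0.88 (adjusted p = 0.0774). Beside these levels, the summed level of the 3 fibroblast and endothelial markers in the table (of 7 listed) was 15.4 to 19.0 CPM in untreated cells and 16.8 to 23.3 CPM in ND-646, TVB-3166, and alisertib cells. It was 36.8 to 55.4 CPM in bleomycin, doxorubicin, and palbociclib cells. The rise was that of CDH5 (VE-cadherin), at 5.06 CPM in day-0 and 40.8 CPM in doxorubicin cells, while COL1A1 fell from 12.3 to 7.62 CPM (log2 fold-change -0.68, adjusted p = 0.00240). The labels name SKBR3 cells alone, and whether any other cells contributed to the level of CCL2 was not tested.

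CXCL16, the membrane-bound ligand of CXCR6, rose in 4 of the 6 TIS groups and most in bleomycin cells. Day-0 libraries held 2.57, 2.14, and 2.13 CPM. Untreated day-7 libraries held 2.59, 2.81, and 3.33 CPM, each above each day-0 library by a small margin. Bleomycin libraries held 10.9, 6.99, and 10.5 CPM, above those of every other group. Doxorubicin libraries held 5.52, 5.36, and 6.44 CPM. ND-646 libraries held 4.97, 5.36, and 5.72 CPM. TVB-3166 libraries held 4.48, 4.40, and 3.59 CPM. All 3 groups stood above the untreated ranges. Alisertib libraries, at 3.77, 2.66, and 3.79 CPM, and palbociclib libraries, at 2.60, 3.14, and 3.34 CPM, overlapped with untreated day 7.

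The fold-change of CXCL16 against day-0 cells was 4.15 in bleomycin (2.91 to 5.91, adjusted p = 0.000137), 2.54 in doxorubicin (1.91 to 3.38, adjusted p = 0.000317), 2.33 in ND-646 (1.65 to 3.31, adjusted p = 0.00298), and 1.83 in TVB-3166 cells (1.34 to 2.49, adjusted p = 0.00378). It was 1.49 in alisertib (1.07 to 2.07, adjusted p = 0.0598) and 1.33 in palbociclib cells (0.956 to 1.84, adjusted p = 0.132), neither past the threshold. The alisertib value passed it in the fit of all 24 libraries (adjusted p = 0.0275), without alisertib replicate 2 (adjusted p = 0.0472), and without day-0 replicate 1 (adjusted p = 0.0405). Bleomycin exceeded doxorubicin by 1.64-fold (adjusted p = 0.0102), and no other neighbors in the order differed beyond their spread.

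**Figure D2:**
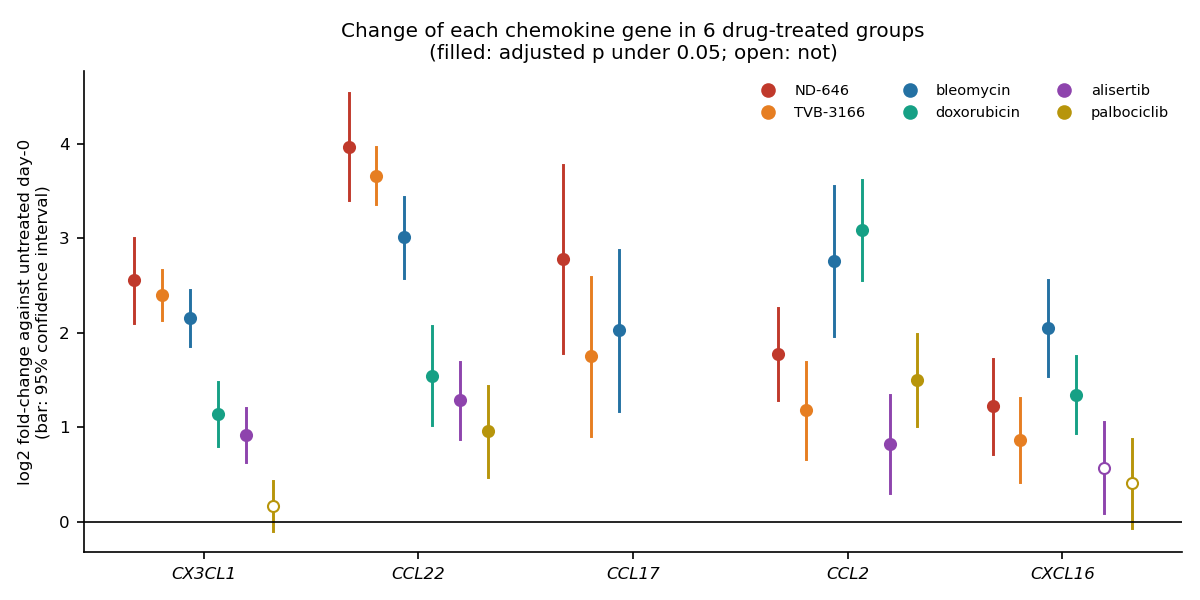
Log2 fold-change of each chemokine gene against day-0 cells, for 6 drugs, with the 95% confidence interval of edgeR's quasi-likelihood fit as a bar. Filled points have an adjusted p under 0.05, open points do not, and CCL17 has no point where it did not pass the filter on low counts. CCL22 reaches 3.97 in ND-646 cells, and CCL2 reaches 3.09 in doxorubicin cells.

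Counted together, the 5 genes were all higher in ND-646 and TVB-3166 cells than in day-0 cells, and all 5 were higher in bleomycin cells. The background share of all genes called higher was 19.1% in ND-646, 27.4% in TVB-3166, and 24.1% in bleomycin cells, and CCL17 entered through the drug group as described. In doxorubicin cells 4 of the 4 genes tested were higher, against 23.7% of all genes. In alisertib cells 3 of 4 were higher, against 17.7%, and in palbociclib cells 2 of 4, against 26%. Of all genes 18.8% were lower in ND-646, 27.7% in TVB-3166, 25.3% in bleomycin, 24.8% in doxorubicin, 19.6% in alisertib, and 27.2% in palbociclib cells, and 0 members were, also by DESeq2. The lowest fold-change of a member against day 0 was 1.12, that of CX3CL1 in palbociclib cells. The median log2 fold-change of the members tested was 2.56 in ND-646, 2.15 in bleomycin, 1.75 in TVB-3166, 1.45 in doxorubicin, 0.87 in alisertib, and 0.68 in palbociclib cells, and that of all genes lay between -0.0078 and 0.018. The medians of ND-646, bleomycin, and TVB-3166 cells include CCL17, and the TVB-3166 median is the value of CCL17 itself. Those of the other 3 groups are over 4 genes without CCL17, so no order of the groups is read from the medians. All 6 comparisons share the same day-0 libraries.

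Time in culture without drug did not move the chemokine genes past the threshold. Untreated day-7 cells differed from day-0 cells in 0 of 4 members tested, against a background of 0.587% of genes in either direction by edgeR. None of the 4 had an unadjusted p under 0.05, and DESeq2 called 0 as well. CX3CL1 was at 1.03-fold (0.804 to 1.31) and CCL22 at 0.900-fold (0.624 to 1.30). CCL2 was at 1.11-fold (0.698 to 1.78). CXCL16 was at 1.28-fold (0.927 to 1.77), and these intervals exclude the fold-changes of each of these genes in bleomycin cells. Some smaller drug changes lie within them. These are CCL2 in alisertib (1.77-fold), CXCL16 in alisertib (1.49) and palbociclib (1.33), and CX3CL1 in palbociclib cells (1.12).

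Against untreated day-7 cells, the comparison matched in time, the largest differences stood. The labels give a refeed on day 3 for every drug group and none for untreated day-7 cells. Drug and refeeding may therefore not be told apart here. CCL22 was 17.6-fold higher in ND-646 (11.4 to 27.1, adjusted p = 5.84e-05) and 14.2-fold higher in TVB-3166 cells (11.2 to 17.9, adjusted p = 1.42e-07). CX3CL1 was 5.80-fold (4.15 to 8.10, adjusted p = 0.000125) and 5.17-fold higher (4.25 to 6.29, adjusted p = 4.82e-07) in the same groups. All 5 members were higher in ND-646 (background 17.2%), TVB-3166 (25.4%), and bleomycin cells (22.4%), where CCL17 again passed the filter only through the drug group. In doxorubicin cells 4 of 5 were higher (21.9%), and CCL17 was at a log2 fold-change of 1.14 (adjusted p = 0.0636), which passed without doxorubicin replicate 2 (1.42, adjusted p = 0.0220). In alisertib cells 2 of 4 were higher (9.55%) and in palbociclib cells 2 of 4 (22%).

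Some of these calls rested on single libraries. In TVB-3166 cells 4 of the 5 calls were left whichever of the 6 libraries was left out. CXCL16 there was at 1.44-fold (adjusted p = 0.0347), and CCL2 at 2.04-fold (adjusted p = 0.0147). The call of CXCL16 was lost without untreated day-7 replicate 1 or 2 (adjusted p = 0.110 and 0.0717) or without TVB-3166 replicate 1 or 2 (0.0945 and 0.107). That of CCL2 was lost without untreated day-7 replicate 3 (0.0594) or TVB-3166 replicate 3 (0.0704). The call of CXCL16 in ND-646 cells was lost without untreated day-7 replicate 1 (adjusted p = 0.0562). Without the same library, CX3CL1 in palbociclib cells passed the threshold at a log2 fold-change of 0.34 (adjusted p = 0.0181). CCL2 in alisertib cells was at 1.61-fold and not called (adjusted p = 0.137), but it was called without that library (adjusted p = 0.0245). In this comparison same-numbered libraries deviated together, and with the replicate number as a block the log2 fold-change of CCL2 was 0.75 (adjusted p = 0.0105).

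The shares of the 5 chemokine genes in their sum differed between the drugs. Every gene of the table has at least 1 count in every library. Chemokine genes without counts in some libraries may therefore be missing from these sums and shares. Per kilobase of exon, which allows levels of different genes to be compared, CX3CL1 stood at 12.6 ± 1.91 (SD, n = 3) CPM per kilobase in day-0 cells and 74.3 ± 15.7 in ND-646 cells. The sum over the 5 genes was 17.6 ± 1.88 in day-0 cells, 101 ± 20.02 in ND-646, 84.7 ± 1.37 in TVB-3166, 87.3 ± 7.61 in bleomycin, 58.3 ± 12.8 in doxorubicin, 32.8 ± 4.85 in alisertib, and 25.8 ± 2.09 in palbociclib cells. CX3CL1 made up 70.9% ± 3.56 of that sum in day-0 cells, 77.9% ± 1.58 in TVB-3166 cells, and 47.6% ± 4.31 in doxorubicin cells. CCL2 made up 17.3% ± 2.77 in day-0 cells, 8.01% ± 2.08 in TVB-3166 cells, and 43.1% ± 5.69 in doxorubicin cells. In palbociclib cells the share of CCL2 was 32.7% ± 5.26, although the sum was the smallest of the TIS groups. The ratio of CX3CL1 to CCL22, on CPM, was 20.2 ± 2.65 in day-0 cells, 7.78 ± 1.11 in ND-646 cells, and 8.43 ± 0.328 in TVB-3166 cells.

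Direct comparisons between the 6 drugs showed where the levels of the 5 genes diverged. In 1 fit of 24 libraries, 48 of 75 differences between pairs of drugs passed the threshold, with 12 of 15 for CX3CL1, 11 for CCL22, 9 for CCL2, 9 for CXCL16, and 7 for CCL17. Of all genes, 9.01% to 44% passed it in either direction, depending on the pair. The count was 5 of 5 for alisertib against ND-646 (background 42.3% of all genes in either direction), for alisertib against bleomycin (36.4%), and for bleomycin against palbociclib (31.5%). It was 4 for ND-646 against palbociclib (43.9%) and 3 for TVB-3166 against bleomycin (29.3%), alisertib (27.7%), and palbociclib (30.2%). CCL17 is among the genes called in each of these pairs but TVB-3166 against bleomycin. It is scarce and may have passed the filter on low counts through the drug groups in which it is high. Without the filter it was called in the same pairs, at an adjusted p of 0.0184 or less. Alisertib and doxorubicin differed in 2 genes (12.9%), CCL2 and CXCL16, both higher in doxorubicin cells, and the call of CXCL16 was lost without alisertib replicate 2 (adjusted p = 0.0673) or doxorubicin replicate 3 (adjusted p = 0.0518). Against ND-646, the alisertib count was 3 without alisertib replicate 2.

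ND-646 and TVB-3166 cells differed in 0 of 5 genes by edgeR and by DESeq2, against 9.01% of all genes. The interval of the log2 difference, ND-646 minus TVB-3166, was -0.15 to 0.50 for CX3CL1, -0.09 to 1.32 for CCL2, and -0.02 to 0.76 for CXCL16. For CCL17 it was 0.26 to 1.84, with an unadjusted p of 0.0111 and an adjusted p of 0.0829, and the call was made without ND-646 replicate 3 (1.33, adjusted p = 0.0267). CCL17 was the only gene of the 5 with an unadjusted p under 0.05 in this pair.

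Doxorubicin and ND-646 cells differed in 4 of 5 genes (background 44%) and in opposite directions. CCL2 was higher in doxorubicin cells (log2 difference 1.29, interval 0.60 to 1.97, adjusted p = 0.00324). CCL22 was 5.45-fold higher in ND-646 cells (adjusted p = 4.04e-08), CX3CL1 was 2.71-fold higher (adjusted p = 5.57e-07), and CCL17 was 3.16-fold higher (adjusted p = 0.00156). The scarce CCL17 may have passed the filter on low counts through the drug groups in which it is high. Without the filter its call was made as well (adjusted p = 0.00145). CXCL16 did not differ beyond its spread (log2 difference 0.10, interval -0.28 to 0.48). TVB-3166 cells showed the same opposition with doxorubicin, with CCL2 at a log2 difference of -1.90 (adjusted p = 0.000195) and CCL22 at 2.12 (adjusted p = 3.77e-07), and 3 of 5 genes called against a background of 33.4%.

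Bleomycin cells had high levels of all 5 genes, and they differed from ND-646 cells in 4 of them (background 31.5%). CCL2 and CXCL16 were higher in bleomycin cells (log2 differences 0.97 and 0.81, adjusted p = 0.0285 and 0.00190), and CCL22 and CX3CL1 were lower (-0.98 and -0.42, adjusted p = 0.000938 and 0.0443). When only the 6 libraries of these groups were fitted, 1 of the 4 calls, that of CCL22, was kept. The call of CX3CL1 was also lost without ND-646 replicate 1 (-0.23, adjusted p = 0.281), and that of CCL2 without bleomycin replicate 3 (0.41, adjusted p = 0.349) or ND-646 replicate 3 (adjusted p = 0.0774), so these calls are less firm than the levels against day 0. CCL17 was called without ND-646 replicate 3 (-1.06, adjusted p = 0.0363). The call of CX3CL1 was lost as well when any 1 of the bleomycin libraries was left out (adjusted p from 0.0696 to 0.140).

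Bleomycin and doxorubicin, which both damage DNA, differed in 3 of 5 genes (background 15.8%). CX3CL1 was 2.02-fold, CCL22 2.77-fold, and CXCL16 1.64-fold higher in bleomycin cells, while CCL2 was at a log2 difference of -0.32 (interval -0.98 to 0.35, adjusted p = 0.544). CCL17 was called as well without doxorubicin replicate 1 (log2 difference 1.47, adjusted p = 0.0398). Alisertib and palbociclib cells differed in 1 gene, CX3CL1, which was 1.68-fold higher in alisertib cells (background 17.6%). Doxorubicin and palbociclib cells differed in CCL2, CX3CL1, and CXCL16 (background 14.9%). For CCL22 in that pair, the log2 difference was 0.58 (adjusted p = 0.0795). With the replicate number as a block it was 0.56 (adjusted p = 0.0324), and without doxorubicin replicate 3 it was 0.78 (adjusted p = 0.0248).

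**Figure D3:**
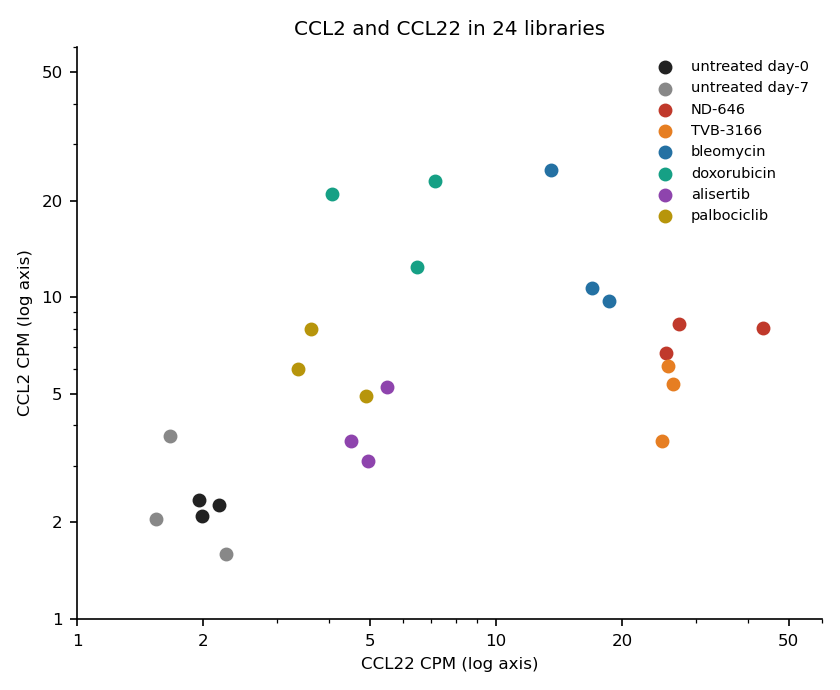
Level of CCL2 against that of CCL22 in each of 24 libraries, in CPM on log axes. The ND-646 and TVB-3166 libraries lie to the right, at 24.9 CPM of CCL22 or more and at most 8.29 CPM of CCL2, and the doxorubicin libraries lie higher and to the left of them, with 12.5 CPM of CCL2 or more.

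Across the 8 group means on the log2 CPM scale, the 3 genes of chromosome 16 had the most alike patterns. Pearson's r was 0.983 for CX3CL1 with CCL22, 0.949 for CCL17 with CCL22, and 0.945 for CCL17 with CX3CL1. For CCL2 and CXCL16 it was 0.864, and for CCL2 and CCL22 it was 0.544. These are descriptions over 8 points that share 24 libraries. Among 14077 genes, CX3CL1 ranked 10th in likeness to CCL22, and CCL22 ranked 5th in likeness to CX3CL1, so other genes were more alike to each of them. The most alike to CX3CL1 were RHPN2 (0.994), SCRN1 (0.989), and SEMA4A (0.987). The most alike to CCL22 were FLCN (0.995), PLD1 (0.993), and MFAP3L (0.992). For CCL17 they were SEL1L and the ferritin heavy chain pseudogenes FTH1P2 and FTH1P10 (each 0.992), whose reads may come from near-identical copies. For CCL2 they included C15orf48 (0.986) and ACTA2 (0.981). For CXCL16 they were STAT5A (0.986), the NF-κB subunit gene NFKB2 (0.983), and TRIB1 (0.983).

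The genes around the chromosome 16 chemokine genes moved in both directions, and outside ND-646 cells more were called lower than higher. Within 250 kb of CCL22 or CX3CL1 the table held 11 other genes, and their log2 fold-changes against day-0 cells in ND-646 cells ran from -0.88 to 0.80, with 2 called higher and 1 lower, where 19.1% of all genes were higher and 18.8% lower. The higher ones were CPNE2, at 0.80 (adjusted p = 0.00292), and ADGRG1, an adhesion receptor, at 0.77 (adjusted p = 0.00455). In TVB-3166 cells 2 of the 11 were higher and 4 lower (27.4% and 27.7% of all genes), in bleomycin 1 and 5 (24.1% and 25.3%), in doxorubicin 1 and 7 (23.7% and 24.8%), in alisertib 0 and 4 (17.7% and 19.6%), and in palbociclib cells 1 and 6 (26% and 27.2%). With 11 genes the counts higher were near or below these shares, and the counts lower were above them in each group but ND-646. The median log2 fold-change of the neighbors was below 0 in each group, from -0.41 in doxorubicin to -0.21 in alisertib cells. The highest log2 fold-change of a neighbor was 0.80, and the lowest was that of DOK4 in palbociclib cells, at -1.09 (adjusted p = 0.000160). In palbociclib cells CCL22 was at 0.96 and CX3CL1 at 0.17, so there a neighbor changed by as much as CCL22 in the other direction and by more than CX3CL1.

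Of the receptors that read these and other chemokines, 8 of 23 listed chemokine receptor genes were in the table. CX3CR1, the receptor of CX3CL1, was at 2.70 ± 0.296 (SD, n = 3) CPM in day-0 cells and 17.2 ± 4.99 CPM in bleomycin cells (log2 fold-change 2.68, adjusted p = 5.63e-05). It also rose in doxorubicin (1.98, adjusted p = 3.14e-05), TVB-3166 (1.70, adjusted p = 6.36e-05), and alisertib cells (0.74, adjusted p = 0.0105). In ND-646 cells, where its ligand was highest, it was at 0.84 (adjusted p = 0.0614). CCR2, the receptor of CCL2, was at 0.528 CPM in day-0 and 1.44 CPM in bleomycin cells (1.43, adjusted p = 0.00967). ACKR2, a decoy receptor that removes CC chemokines, rose in doxorubicin (1.11, adjusted p = 0.00117), bleomycin (1.08, adjusted p = 0.00214), ND-646 (0.72, adjusted p = 0.0265), and palbociclib cells (0.70, adjusted p = 0.00931). CXCR2 fell in TVB-3166 cells (-1.49, adjusted p = 0.00624). Of the receptors tested, 1 of 4 was higher in ND-646 (19.1% of all genes), 1 of 4 in TVB-3166 (27.4%), 3 of 5 in bleomycin (24.1%), 4 of 7 in doxorubicin (23.7%), 2 of 6 in alisertib (17.7%), and 2 of 6 in palbociclib cells (26%). The counts in ND-646, TVB-3166, and palbociclib cells were near the share of all genes. CCR3, at 0.224 CPM in day-0 cells, passed the filter on low counts only in doxorubicin, alisertib, and palbociclib cells. It was called higher in each of them. CXCR4, at 0.347 CPM in day-0 cells, was called higher in doxorubicin cells and did not pass the filter in ND-646 or TVB-3166 cells. These calls are not independent of the filter.

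Of 12 genes that cut, shed, or protect chemokines, 10 were tested. In ND-646 cells 5 were higher (19.1% of all genes) and none lower, with a median log2 fold-change of 0.59. In TVB-3166 cells 4 were higher (27.4%) and none lower (median 0.36), and in bleomycin cells 5 (24.1%) and none (0.62). In doxorubicin cells 7 were higher (23.7%) and 1 lower (0.46), and in palbociclib cells 5 (26%) and 1 (0.37). In alisertib cells 1 was higher and 1 lower (0.15), below the 17.7% and 19.6% of all genes. The median of all genes lay near 0 in each comparison. ADAM17, a sheddase of CX3CL1 and CXCL16, was at a log2 fold-change of 0.76 in ND-646 (adjusted p = 0.0210) and 0.85 in bleomycin cells (adjusted p = 0.00533), and it was also called in doxorubicin (0.84) and palbociclib cells (0.59). It was at 0.29 in TVB-3166 cells (adjusted p = 0.136). MMP2, a metalloprotease that cuts several chemokines, was at a log2 fold-change of 3.97 in bleomycin (adjusted p = 0.000723) and 3.02 in doxorubicin cells (adjusted p = 0.00123), and it was called in ND-646 (2.35), palbociclib (2.15), and TVB-3166 cells (1.77) too. CTSL (cathepsin L) was at 1.14 in ND-646 (adjusted p = 0.00740) and 1.01 in bleomycin cells (adjusted p = 0.000198), and was called at 0.65 in TVB-3166 and 0.46 in doxorubicin cells. TIMP3, an inhibitor of ADAM17, was at 1.84 in doxorubicin (adjusted p = 0.000233), 1.80 in palbociclib (adjusted p = 0.000359), and -0.81 in ND-646 cells (adjusted p = 0.0852).

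Of the chemokine-like factors, 8 of 19 were in the table. In bleomycin, doxorubicin, palbociclib, and TVB-3166 cells 3 of the 7 tested were lower and 1 higher, where 24.8% to 27.7% of all genes were lower and 23.7% to 27.4% higher. In ND-646 cells 1 of 7 was higher and none lower (19.1% and 18.8% of all genes), and in alisertib cells none of 8 was higher and 1 lower (17.7% and 19.6%). With so few genes no direction of the list is read from these counts. MIF, a cytokine that acts through chemokine receptors, was at 185 ± 38.6 CPM in day-0 cells and at 98.5 ± 29.1 CPM in bleomycin cells (log2 fold-change -0.91, adjusted p = 0.00732). It also fell in doxorubicin (-0.78), TVB-3166 (-0.57), and palbociclib cells (-0.54), and in ND-646 cells it was at -0.13 (adjusted p = 0.763). TAFA5 was at -3.50 in palbociclib (adjusted p = 4.88e-05) and -3.03 in doxorubicin cells (adjusted p = 0.000249), it also fell in bleomycin (-2.20), alisertib (-1.42), and TVB-3166 cells (-0.76), and in ND-646 cells it was at -0.32 (adjusted p = 0.528). CKLF was at -1.61 in TVB-3166 cells (adjusted p = 0.000260) and also fell in palbociclib (-0.99), bleomycin (-0.84), and doxorubicin cells (-0.78).

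Other secreted factors of the SASP also changed in each TIS group. Of 12 cytokine and growth factor genes tested, 7 were higher and 2 lower in ND-646 (19.1% and 18.8% of all genes), 8 and 1 in TVB-3166 (27.4% and 27.7%), and 8 and 2 in doxorubicin cells (23.7% and 24.8%). Of 13 tested, 9 were higher and 1 lower in bleomycin (24.1% and 25.3%), 6 and 2 in alisertib (17.7% and 19.6%), and 8 and 1 in palbociclib cells (26% and 27.2%). The added gene in these 3 groups was IL15, at 0.249 CPM in day-0 cells and 0.663, 0.524, and 0.654 CPM in them. It was called higher in each and did not pass the filter on low counts elsewhere, so its calls are not independent of the filter. GDF15, a stress-induced cytokine, rose from 1.57 ± 0.422 CPM in day-0 cells to 116 ± 66.3 CPM in ND-646 cells (log2 fold-change 6.20, adjusted p = 3.20e-05), and it was at 3.28 in both alisertib and palbociclib cells. TNFSF15, a member of the TNF family, was at a log2 fold-change of 2.28 or more with each of the 6 drugs. CSF1, the growth factor of macrophages, was at a log2 fold-change of 3.18 in bleomycin (adjusted p = 4.66e-06) and 2.90 in ND-646 cells (adjusted p = 1.57e-05), and at 0.22 in palbociclib cells (adjusted p = 0.326). TNFSF10 (TRAIL) was at 3.85 in bleomycin cells and 1.22 in alisertib cells.

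NF-κB, the transcription factor best known for switching on chemokine genes, also switches on its own feedback genes. Of 18 subunit and feedback genes tested, 13 were higher and 0 lower in bleomycin cells (24.1% and 25.3% of all genes), 12 and 0 in doxorubicin (23.7% and 24.8%), 10 and 1 in ND-646 (19.1% and 18.8%), and 9 and 2 in TVB-3166 cells (27.4% and 27.7%). In alisertib cells 5 were higher and 0 lower (17.7% and 19.6%), and in palbociclib cells 5 and 1 (26% and 27.2%), where the count higher was near the share of all genes. BIRC3, an inhibitor of apoptosis, was at a log2 fold-change of 3.77 against day 0 in bleomycin (adjusted p = 4.66e-06), 3.10 in ND-646 (adjusted p = 2.21e-05), 3.07 in doxorubicin (adjusted p = 3.10e-06), and 1.54 in palbociclib cells (adjusted p = 7.70e-05). TNFAIP3 (A20), a brake on the pathway, was at 2.01 in bleomycin, 1.64 in doxorubicin, 0.69 in TVB-3166, and 0.90 in ND-646 cells. TRAF1 was at 3.40 in bleomycin and 2.44 in ND-646 cells, and NFKBIZ was at 2.41 in palbociclib cells. TRAF1 was scarce in day-0 cells, at 0.311 CPM, and may have passed the filter on low counts through the drug groups. The list's median log2 fold-change was largest in bleomycin cells at 0.91, and it was 0.58 in ND-646 cells. Whether NF-κB contributed to the chemokine levels was not tested.

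The interferon gamma pathway, which also induces CX3CL1 and CXCL16 in many cells, was read from 9 of 10 listed genes. In bleomycin cells 7 were higher (24.1% of all genes), in doxorubicin 6 (23.7%), in ND-646 5 (19.1%), in TVB-3166 5 (27.4%), and in alisertib 4 (17.7%), with none lower. In palbociclib cells 6 were higher (26%) and 2 lower (27.2%). IRF9 was at a log2 fold-change of 3.80 against day 0 in bleomycin (adjusted p = 2.53e-05) and 3.42 in TVB-3166 cells (adjusted p = 1.88e-06). IRF1 was at 2.93 in bleomycin, 2.40 in doxorubicin, and 2.01 in ND-646 cells. IFNGR1 and IFNGR2, the receptor chains, were at 1.44 and 1.63 in ND-646 cells. Whether this pathway contributed to the chemokine levels was not tested.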

How the data were processed

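RNA was measured by RNA-seq in 24 libraries. The labels name a stranded mRNA kit and the paper a stranded total RNA kit. Per the labels and the paper, the authors used HISAT2 for alignment (build GRCh37), StringTie for assembly, and DESeq2 for comparisons, and they deposited whole-number read counts per gene without normalization. Counting settings are not given in the sources used here. The table lists 14493 genes, each with at least 1 count in every library.

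Tests were run on these counts in R 4.3.3 with edgeR 4.0.16 (filterByExpr, TMM, glmQLFit, glmQLFTest, 2-sided). Comparisons with untreated cells used only both groups compared, and pairs of drugs used 1 fit of 24 libraries. Adjusted p-values are Benjamini-Hochberg values over all genes tested, with a threshold of 0.05, and are not adjusted over the comparisons. The background share is the percentage of all genes tested that passed the same threshold. Log2 CPM used a prior count of 2. With 3 against 3 libraries an exact permutation test cannot give a p below 0.1. CPM per kilobase used exon lengths of the MANE Select transcript in the GRCh37 annotation. CCL17 had 6 to 59 counts per library and the other members 52 or more, so counting error is largest for CCL17.

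The members and gene lists were chosen with earlier results of these data known. Named genes are all members, up to 4 genes a list with the largest summed absolute log2 fold-change over the 6 drugs, the 3 genes most alike each member, and neighbors within 250 kb, and 1 gene that the rule names is not reported here. Replicate numbers were taken to pair libraries where all 3 same-number correlations of deviations from the group means were over 0.1, which held in 0 of 7 comparisons with day 0, in 2 of 6 with day 7 (alisertib and bleomycin), and in 9 of 15 pairs of drugs. Neither source says what a number marks. Alternatives were the replicate block, a filter of at least 10 counts per library, no filter, DESeq2 1.42.0, RLE scaling, the call rule of a fold-change of at least 2 with a raw p under 0.05, another choice of libraries in the fit, and leaving out each library. The steps were tested on simulated data.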

Additional observations from a re-analysis of the deposited data

How the results depend on the processing

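The counts of members called against day-0 and untreated day-7 cells in ND-646, TVB-3166, bleomycin, and doxorubicin cells stayed within 1.5 times under every alternative run. Under a fold-change of at least 2 with a raw p under 0.05, the count fell from 3 to 1 in alisertib and from 2 to 1 in palbociclib against day 0, and from 2 to 1 in alisertib against day 7. Between drugs the same rule gave 1 for alisertib and doxorubicin (2 before), 3 for alisertib and ND-646 (5), 0 for alisertib and palbociclib (1), 0 for bleomycin and ND-646 (4), 1 for doxorubicin and palbociclib (3), and 1 for ND-646 and TVB-3166 (0). The last is CCL17. These differences follow from the rule itself, since several called differences are under 2-fold. With only both groups compared, bleomycin and ND-646 differed in 1 gene, and fewer libraries entered that fit. Without 1 library at a time, the count ranged from 1 to 2 for alisertib and doxorubicin (1 without alisertib replicate 2 or doxorubicin replicate 3), from 3 to 5 for alisertib and ND-646 (3 without alisertib replicate 2), from 2 to 4 for bleomycin and ND-646 (2 without bleomycin replicate 3), and from 0 to 1 for ND-646 and TVB-3166 (1 without ND-646 replicate 3).

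Single values changed sign in 8 fits, all with 1 library left out, and none of these values was called. Over these fits, the log2 fold-change of untreated day-7 against day-0 cells ranged from -0.29 to 0.38 for CCL2 (lowest without day-7 replicate 1) and from -0.16 to 0.14 for CX3CL1 (below 0 without day-7 replicate 1 or day-0 replicate 3). CXCL16 in palbociclib against day-7 cells ranged from -0.0100 to 0.18 (below 0, at -0.0031, also without day-7 replicate 1). CCL17 in alisertib minus palbociclib cells ranged from -0.50 to 0.25, and CX3CL1 in ND-646 minus TVB-3166 cells from -0.019 to 0.30 (lowest without ND-646 replicate 1). The replicate block changed 2 calls in comparisons taken as paired, given beside their results, and no other call there. In comparisons not taken as paired it made calls of CXCL16 in alisertib against day 0 (log2 fold-change 0.57, adjusted p = 0.0448) and in doxorubicin against TVB-3166 cells (0.46, adjusted p = 0.0434). DESeq2 changed 1 call, the latter (adjusted p = 0.0435), which was also made with at least 10 counts (0.0421) and with only both groups compared (0.0395). The call of CX3CL1 between bleomycin and ND-646 was lost with RLE size factors (adjusted p = 0.0505), no filter (0.05002), and at least 10 counts (0.0521). Depth limits CCL17 most, at 6 to 59 counts per library.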
